A study of Mus musculus with 48 samples.

Results

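The protein-coding genes of the cytosolic ribosome were described across the nucleus accumbens shell of 48 mice. Members were chosen by name only: symbols beginning with Rps or Rpl followed by a number, with an optional letter and an optional x or l, together with Rpsa, Rplp0, Rplp1 and Rplp2. Kinases whose symbols share this start, and pseudogenes, were left out, and 1 further gene is not used here. The rule found 79 of the 37620 genes in the deposited table, and 77 of them passed a filter on low values (1 ppm of the mean library total in at least 12 libraries). Rpl10l, listed at 0 in all 48 mice, and Rpl39l, with values between 0 and 7, did not pass. The members lie on 19 chromosomes, 4 of them on the X chromosome.

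The mice came from the HS-CC stock, an outbred stock derived from the founder strains of the Collaborative Cross, and were bred for high or low ethanol preference for 4 generations. The High line gave 12 females and 12 males and the Low line 12 females and 12 males, with 1 library per mouse; the labels name no age, drug, mutation or transgene. The shell, part of the ventral striatum, was cut out by laser microdissection, and poly(A) RNA was sequenced. Each line is 1 selected population whose families are not stated in the labels. The p-values therefore reflect the spread among individual mice, and selection and drift cannot be told apart.

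The small ribosomal subunit (Rps proteins) reads the mRNA and the large subunit (Rpl proteins) joins amino acids. The ribosome needs its proteins in equal numbers, apart from the acidic stalk proteins Rplp1 and Rplp2, which are present in more than a single copy and recruit elongation factors. Vertebrate ribosomal protein mRNAs are known for a 5′ terminal oligopyrimidine tract, a C followed by a run of C and T at the first base of the transcript, through which mTOR and LARP1 control their translation. In neurons these mRNAs are abundant both in the cell body and in dendrites and axons. Mammalian genomes hold many processed pseudogenes of these genes, made by reverse transcription of their mRNAs.

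RefSeq promoter sequences of build GRCm38.p6 were matched to 59 members. In 12 of the 59 (20.3%) the annotated first base was a C followed by at least 4 bases that were each C or T, read on the gene's own strand only. Among all 27025 genes of the same table the share was 3.01% (813 genes), and among 68 mitochondrial ribosomal protein genes it was 0. These 12 are printed from 15 bases before the annotated start, with the run from the first base in capitals, because the tract is the sequence feature that members are known to share.
Rpl14 (chr9:120571502-120571531, plus strand): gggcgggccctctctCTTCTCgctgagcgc
Rpl15 (chr14:18270972-18271001, minus strand): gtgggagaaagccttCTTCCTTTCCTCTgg
Rpl28 (chr7:4792950-4792979, plus strand): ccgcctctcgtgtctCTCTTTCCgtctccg
Rpl35 (chr2:39005117-39005146, minus strand): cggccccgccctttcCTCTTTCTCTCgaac
Rpl35a (chr16:33056467-33056496, plus strand): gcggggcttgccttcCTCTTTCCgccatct
Rpl38 (chr11:114668565-114668594, plus strand): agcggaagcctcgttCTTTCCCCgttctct
Rplp2 (chr7:141447636-141447665, plus strand): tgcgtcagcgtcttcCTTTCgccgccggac
Rps10 (chr17:27635230-27635259, minus strand): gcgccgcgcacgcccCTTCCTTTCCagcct
Rps15a (chr7:118116133-118116162, minus strand): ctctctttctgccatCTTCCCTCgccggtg
Rps18 (chr17:33955651-33955680, minus strand): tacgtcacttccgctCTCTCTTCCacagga
Rps21 (chr2:180257364-180257393, plus strand): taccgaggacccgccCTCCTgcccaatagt
Rps27 (chr3:90213634-90213663, minus strand): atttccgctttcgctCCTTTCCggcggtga
The runs differed in length, with Rpl15 having the longest at 13 bases and Rplp2 and Rps21 having 5. Allowing the C to lie within 10 bases of the annotated start raised the count to 37 of 59 members (62.7%), against 34.4% of all genes and 45.6% of the mitochondrial ribosomal protein genes. An annotated start can differ from the base used in this tissue, which was not measured here. The 12 members with the run had a median level of 1979 normalised counts per kb and a median correlation of 0.84 with the mean of the other members; the 45 tested members with an annotated start but no such run had 2013 per kb and 0.90.

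Members were among the most abundant mRNAs of the shell. Levels are the authors' normalised counts, here divided by the length of all annotated exons of the gene. Members were short, with a median length of 1781 bases against 4314 over the tested genes. Whether values rise in proportion to length was not tested, so levels per kb of short and long genes compare only roughly. The median over the 77 tested members was 2244 per kb, and 60 of them lay above 963 per kb, the 95th percentile of the tested genes; the median tested gene had 81.4 per kb. Summed over the 79 members, the share of the library total averaged 2.88% ± 0.395 (SD, n = 48), from 1.88% in High males replicate 1 to 3.72% in Low males replicate 1. The 10 members with the highest totals held 29.7% of the sum.

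**Figure D1:**
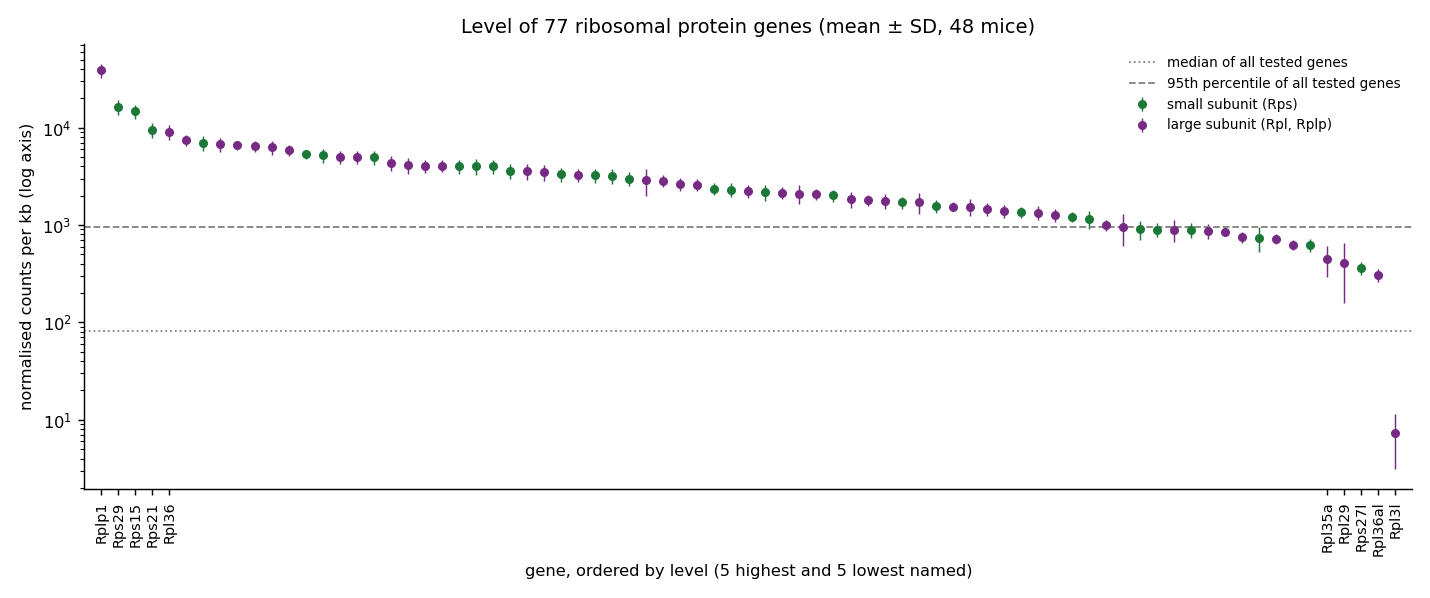
Level of the 77 tested ribosomal protein genes in normalised counts per kb of annotated exon (log axis), as the mean and SD over 48 mice, ordered from high to low, with the 5 highest and 5 lowest named. Rplp1 is highest and Rpl3l lies far below the others; 60 genes lie above the dashed line at the 95th percentile of all tested genes (963) and the dotted line marks their median (81.4).

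The stalk protein gene Rplp1 had the highest level, 38725 ± 6088 per kb (SD, n = 48). Its values ran from 13539 to 26125 normalised counts with a median of 19208.5, and its mean lay above that of the next gene by more than both SDs. Rps29, a small zinc-binding protein of the small subunit, followed at 16397 ± 2906 per kb, and Rps15 at 14758 ± 2390; these neighbours differed by less than their spread. Rps21 (9500.2 ± 1719.5) and Rpl36 (9040.5 ± 1603) also differed by less than their spread. The other stalk genes were lower, Rplp2 at 2593 ± 364 and Rplp0, the stalk base, at 1709 ± 406 per kb. Rpsa, the laminin receptor and small-subunit protein, had 4008 ± 693 per kb. The 4 X-linked members, of which Rps4x belongs to the small subunit and the rest to the large, had 4024 ± 674 (Rps4x), 1846 ± 344 (Rpl36a), 1793 ± 238 (Rpl10) and 1456 ± 228 per kb (Rpl39).

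Most near-copies of members were lower than the genes they resemble. Rpl3l, known as the striated-muscle relative of Rpl3, had 7.32 ± 4.18 per kb against 4998 ± 723 for Rpl3, and its values of 0 to 26 normalised counts were the lowest of any tested member. Rpl29 (403 ± 245) and Rpl35a (451 ± 159) were also among the 5 lowest, with wide spreads that are described further on. Rpl36al had 309 ± 47.6 per kb against 1846 for Rpl36a, and Rps27l, a p53-responsive relative of Rps27 in human cells, had 365 ± 57.2 against 7025 ± 1257 for Rps27. Rpl39l, known from the testis, averaged 1.28 per kb against 1456 for Rpl39, and Rpl10l, also known from the testis, was listed at 0. Rpl22 had 627 ± 68.8 per kb. Its relative Rpl22l1, which the naming rule does not take in, had values between 1700 and 2926 normalised counts, around those of Rpl22 (1381 to 2303), without account of length. Rpl7l1 had 445 to 692 normalised counts against 3029 to 6660 for Rpl7.

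The order of levels carries a limit from the sequences. A member shared a median of 24.2% of its 25-base words with genes elsewhere in the genome, and 68 members shared 10% or more. Rpl36 shared 96.9% and Rplp1 80.0%, and how reads that fit several places were counted is not given in the sources used here. Over the 77 members the level per kb was higher where the shared fraction was higher (Spearman's rho 0.53, a description across genes of the same libraries). The 10 tested members with under 10% of their words elsewhere had a median of 899 per kb.

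Library totals ran from 13579559 to 14561911 normalised counts and genes above 0 from 19708 to 20888. The 9 spiny neuron markers, which define the striatum, summed to 92148 to 138729 over the 48 mice. The 5 markers of cortical pyramidal neurons, which the shell should lack, had medians of 22 in High and 30 in Low, with a highest value of 1995 in High and 4813 in Low; Slc17a7, the only one of them tested, correlated at -0.39 with the mean of the members. In bulk tissue, fewer cells of a type and less RNA per cell cannot be told apart.

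The first comparison asked whether any ribosomal protein gene differed between the lines bred for high and low ethanol preference. No member passed an adjusted p of 0.05 by limma (Benjamini-Hochberg over 15350 genes), against 0.28% of all tested genes, and 0 of 77 had an unadjusted p under 0.05, against 9.07% of all tested genes. The median log2 difference over the 77 members was 0.01, with 45 above 0, and the median over all tested genes was -0.003; with the share of exon values in last exons, described later, as a term in the fit the members' median was -0.02. The summed members took 2.89% ± 0.438 of the library in High mice and 2.87% ± 0.355 in Low mice (SD, n = 24 each). The median standard error of a member's log2 difference was 0.0677.

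**Figure D2:**
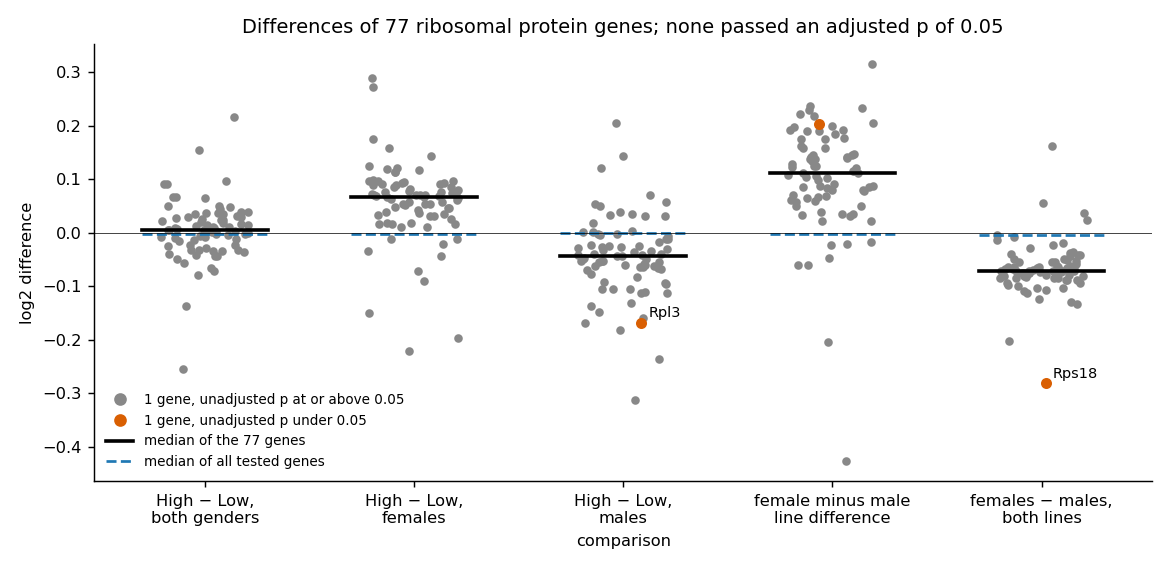
Log2 differences of the 77 tested ribosomal protein genes in each of 5 comparisons; each point is 1 gene, the black bar is the median of the 77 and the dashed bar the median of all tested genes. No gene passed an adjusted p of 0.05; the points in orange, of which Rpl3 and Rps18 are named, had an unadjusted p under 0.05. In females the median line difference was 0.07 and in males -0.04.

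The 6 members with the smallest p were all of the large subunit. Rpl26, which sits near the exit of the peptide tunnel, had 2183 to 6936 normalised counts in High females (median 4165.5) and 2144 to 5167 in High males (median 3186.5), against 2412 to 5990 in Low females (median 4436) and 1742 to 7031 in Low males (median 4833). The groups overlapped over most of their range, and the log2 difference was -0.25 ± 0.132 (SE, limma adjusted p = 0.574). Rpl23a, also at the tunnel exit, had a log2 difference of -0.14 ± 0.0721 (limma adjusted p = 0.585), with medians of 3129 in High females and 3477.5 in High males, against 3304 in Low females and 3735.5 in Low males. Rpl35a was at 0.22 ± 0.139, Rplp1 at 0.09 ± 0.0641, Rpl3, which lies at the peptidyl transferase centre, at -0.07 ± 0.0565 and the X-linked Rpl36a at 0.10 ± 0.0836, with adjusted p values between 0.693 and 0.793. All 6 had overlapping groups.

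Within females, 67 of 77 members had a log2 difference above 0 between High and Low, with a median of 0.07. With the last-exon share in the fit 25 were above 0 and the median was -0.01. No member passed, against 0.0261% of all tested genes, and 0 had an unadjusted p under 0.05, against 4.68%. The summed members took 2.86% ± 0.373 in High females and 2.74% ± 0.298 in Low females (SD, n = 12 each). The smallest p values were those of Rpl14 (0.16 ± 0.0894), Rplp1 (0.14 ± 0.0906) and Rpl17 (0.12 ± 0.0753), each with a limma adjusted p of 1.00. Rpl14 ran from 5406 to 9480 in High females (median 6838) and from 4955 to 7075 in Low females (median 6424).

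Within males, 16 of 77 members were above 0 and the median was -0.04, but without High males replicate 1 the median was 0.01. No member passed, against 0% of all tested genes, and Rpl3 alone had an unadjusted p under 0.05, against 6.93%. The summed members took 2.92% ± 0.510 in High males and 2.99% ± 0.378 in Low males. Rpl3 had 11236 to 18135 normalised counts in High males (median 15907.5) and 13961 to 21909 in Low males (median 17282). Its log2 difference was -0.17 ± 0.0799 (limma unadjusted p = 0.0407, adjusted p = 0.711), and High and Low males overlapped between 13961 and 18135. Rps27l (-0.17 ± 0.0886) and Rpl23a (-0.18 ± 0.102) followed, with adjusted p values of 0.742 and 0.760.

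The difference between these line differences, females minus males, had a median of 0.11 over the members, with 69 of 77 above 0; without High males replicate 1 it was 0.05, and with the last-exon share in the fit it was -0.002, with 37 above 0. No member passed, against 0% of all tested genes, and 1 of 77 had an unadjusted p under 0.05, against 2.4%. The small-subunit gene Rps16 was at 0.20 ± 0.111 and Rps27l at 0.22 ± 0.125, each with a limma adjusted p of 1.00. Neither was the member with an unadjusted p under 0.05, which is not reported here. Since the members move together from mouse to mouse, as described later, the count of members on one side of 0 is not a count of independent genes.

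Between females and males the members leaned one way without any call. The median log2 difference was -0.07, with 4 of 77 above 0, against a median of -0.004 and 47.7% of all tested genes above 0. No member passed, against 0.0782% of all tested genes, and 1 of 77 had an unadjusted p under 0.05, against 4.21%. The summed members took 2.80% ± 0.335 in females and 2.95% ± 0.440 in males (SD, n = 24 each).

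Rps18, a small-subunit protein, was that member: it had medians of 1689 in High females and 1502 in Low females, against 1733 in High males and 2209 in Low males. Its log2 difference was -0.28 ± 0.110 (limma unadjusted p = 0.0140, adjusted p = 0.982), and the full ranges, 994 to 2423 in females and 1172 to 2932 in males, overlapped. With the values of its processed copies added, it was -0.15 ± 0.0660. Among the next by p were Rpl3 (-0.11 ± 0.0565), Rplp1 (-0.10 ± 0.0641), Rpl6 (-0.07 ± 0.0458) and Rpl19 (-0.08 ± 0.0576), each with an adjusted p of 0.982. The 4 X-linked members had differences of -0.08 (Rps4x), -0.06 (Rpl39), -0.04 (Rpl10) and -0.04 (Rpl36a), within the range of the autosomal members.

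The members varied together from mouse to mouse. After removing the mean of each group, the median Pearson correlation over 48 mice was 0.77 among the 2926 pairs of members (Spearman 0.72), and 96.8% of pairs were above 0. Over all pairs of tested genes the median was 0.00. Mitochondrial ribosomal protein genes, which serve a separate ribosome, had a median of 0.31. Correlation this high was not particular to the members: the median was 0.80 among 8 oligodendrocyte marker genes and 0.80 among 4 blood marker genes. The correlation was present in every group, at 0.78 in High females, 0.89 in High males, 0.66 in Low females and 0.70 in Low males. It was 0.69 without High males replicates 1 and 5, the pair of mice farthest from the median. Among the 10 members with under 10% of their words elsewhere it was 0.52. These 10 include Rpl3l, near the floor at 0 to 26 normalised counts, which correlated at 0.03 with the mean of the others. Over the 77 members, the correlation with the mean of the others was not higher where the shared fraction was higher (Spearman's rho -0.04). These correlations describe the same 48 libraries and share their depth, scaling and RNA quality.

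The small and large subunits moved as one. The mean of the 30 small-subunit members and the mean of the 47 large-subunit members correlated at 0.98 over mice. Within the small subunit the median pairwise correlation was 0.81 and within the large subunit 0.73. The mean over the 77 members had an SD between mice of 0.20 on the log2 scale. It was lowest in High males replicates 1 and 5, at -0.59 and -0.51 from their group mean, and highest in Low males replicate 1, at 0.30.

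**Figure D3:**
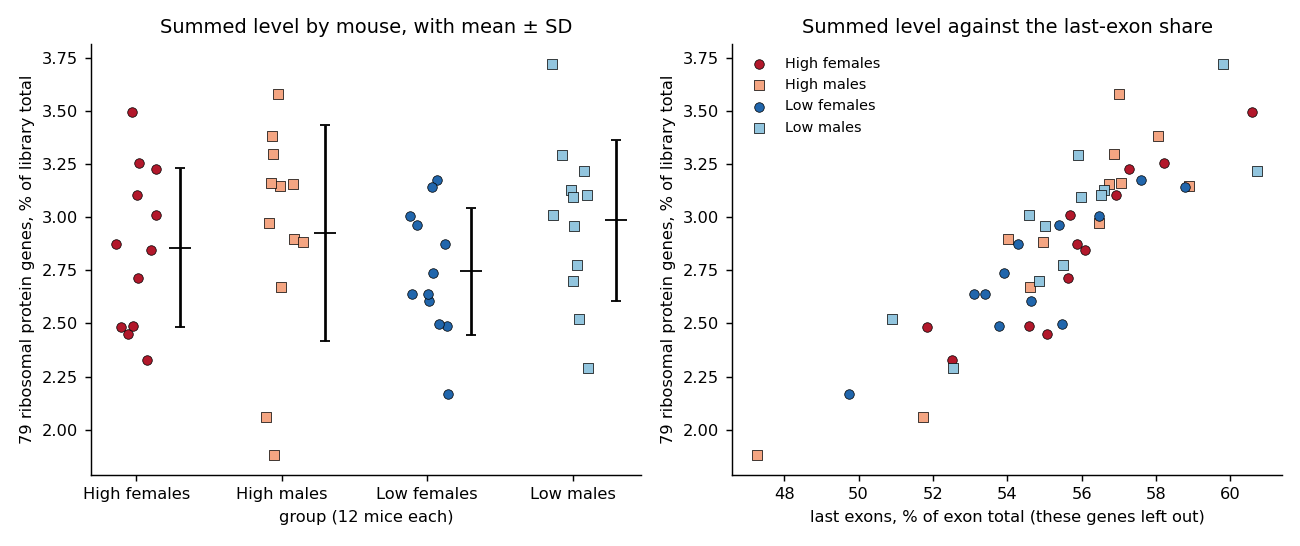
Left, the summed level of the 79 ribosomal protein genes as a percentage of the library total, by mouse, in the 4 groups of 12, with the mean and SD of each group. Right, the same values against the share of the exon total that lay in last exons, with the ribosomal protein genes left out of that share. The groups overlap, and mice with a higher last-exon share have a higher summed level, High males replicate 1 being lowest in both.

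The common variation moved with the share of exon values in last exons. Whether this share reflects RNA quality was not tested. The share of a library's exon values lying in last exons, computed without the members, averaged 55.4% ± 2.61 (SD, n = 48) and ran from 47.3% in High males replicate 1 to 60.7% in Low males replicate 12. Within groups it correlated with the mean of the members at 0.87 (Spearman 0.88), and at 0.87 without the 2 mice farthest from its median. By group the correlation lay between 0.80 in Low males and 0.91 in High females. Single members correlated with it at a median of 0.79, with 75 of 77 above 0. The median was 0.28 for 1269 other protein-coding genes no longer than the median member, and -0.03 for all tested genes. The relation was not particular to the members. The median was 0.79 for 6 cytosolic ribosomal proteins outside the naming rule and 0.45 for 77 mitochondrial ones. It was 0.56 for 17 elongation factors and other mRNAs with the tract and 0.51 for 8 small nucleolar RNA host genes. Ribosome biogenesis genes were at 0.14, initiation factors at -0.01 and mTOR and MYC genes at -0.10.

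The group means of the last-exon share were ordered as those of the members within each gender. The share was 55.9% ± 2.35 in High females and 54.7% ± 2.33 in Low females, and 55.3% ± 3.19 in High males and 55.7% ± 2.68 in Low males. With the share over all genes, members included, as a term in the fit, the median log2 difference of the members between High and Low was -0.01 in females and -0.02 in males, the median interaction was -0.002, and the median between females and males was -0.06. No member passed in that fit either, against 0.502% of all tested genes between High and Low, 0.013% in females, 0% in males and for the interaction, and 0.0782% between females and males. An unadjusted p under 0.05 was reached by 3 of 77 members between High and Low (11.4% of all tested genes), 1 in females (5.59%), 2 in males (7.96%), 1 for the interaction (2.2%) and 6 between females and males (5.49%). With the same term removed, the median pairwise correlation of the members was 0.52 in place of 0.77. The part of the last-exon share in the co-variation was not tested further.

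Markers of cell types did not follow the members as closely. The median correlation of single markers with the mean of the members was -0.15 for 9 spiny neuron genes, -0.03 for 8 oligodendrocyte genes, 0.22 for 6 astrocyte genes, 0.12 for 7 microglia genes and -0.10 for 6 endothelial and mural genes. All 8 oligodendrocyte genes had a log2 difference below 0 between High and Low, and none was called. By limma, 7 had an unadjusted p under 0.05, against 9.07% of all tested genes. Within females 7 had such a p (4.68% of all tested genes), with a median difference of -0.35. Within males 0 had one (6.93%), with a median of -0.14. As these genes moved together (median pairwise correlation 0.80), they are not 8 independent results. Their sum was 16250 ± 4091 in High and 18246 ± 3465 in Low (SD, n = 24 each). The part of these cells in the members' values was not tested.

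Most members followed the common pattern closely. Each member was correlated with the mean of the other 76, and 56 of 77 had an r above 0.8. Rpl23 was highest at 0.99, then Rps23 at 0.98, and Rps29 and Rpl9 at 0.97. Rpl23, a large-subunit protein that can also bind Mdm2, ran from 4673 to 7638 in High females and 3567 to 7085 in High males, against 4092 to 6615 in Low females and 4450 to 7795 in Low males. The spread between mice was smallest for Rpl15 (SD 0.15 on the log2 scale), Rpl6 and Rpl22 (0.16 each) and Rpl4 (0.17). The median SD was 0.24 for members and 0.23 for all tested genes.

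**Figure D4:**
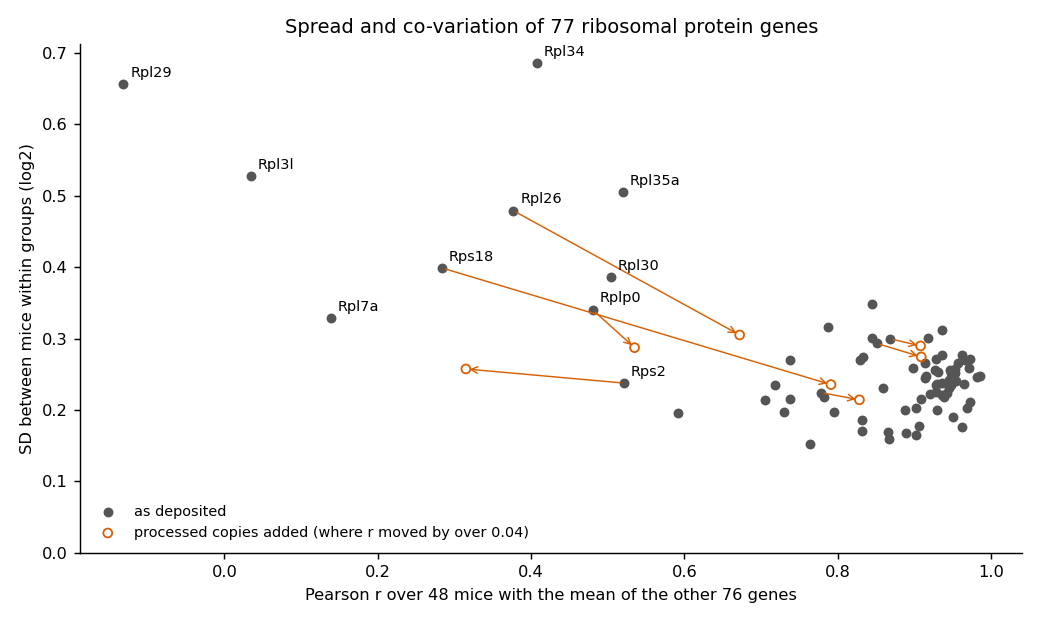
Spread between mice (SD within groups, log2) against the correlation with the mean of the other 76 ribosomal protein genes over 48 mice; each filled point is 1 gene. Most lie at the lower right. Open points show where a gene moves when its processed pseudogene copies are added, for genes whose r moved by over 0.04: Rps18 moves from 0.28 to 0.79 and Rpl26 from 0.38 to 0.67.

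Under 0.5 lay 7 members: Rpl29 (-0.13), Rpl3l (0.03), Rpl7a (0.14), Rps18 (0.28), Rpl26 (0.38), Rpl34 (0.41) and Rplp0 (0.48). Rpl3l is the near-silent muscle relative. For 5 of the others a processed pseudogene copy in the table had values that split the mice into bands. These pairs were chosen for description after their values were seen. Some copies of members that followed the others closely were split as well. Rps15-ps2 was at most 10 in 41 mice and at least 408 in 7, with Rps15 at 0.91. Gm10036 was at most 6 in 38 mice and at least 86 in 10, with its source gene Rpl11 at 0.96. The bands below are cut at the largest gaps between the mice's own values, taken on the log2 scale for Gm10709 only. The number of cuts was set by hand for each copy. Reads of such copies and of their source gene could not be told apart with certainty.

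Rpl26 and Gm15772, a processed copy on chromosome 5 that holds 24.8% of the words of Rpl26, showed the plainest split. Gm15772 lay between 1 and 15 normalised counts in 33 mice and between 861 and 1346 in 15 mice, with none between. Rpl26 ran from 2919 to 7031 in the 33 mice and from 1742 to 3422 in the 15. Inside the bands the Pearson correlation of gene and copy was 0.06 in the 33 mice and 0.65 in the 15. The 15 were 10 High mice, 5 of each gender, and 5 Low mice, 2 females and 3 males. The mean of Gm15772 was 472 ± 575 in High and 245 ± 481 in Low (SD, n = 24 each). With copies added, the log2 line difference of Rpl26 was -0.15 ± 0.0848 in place of -0.25 (limma adjusted p = 0.614), and its SD between mice was 0.30 in place of 0.48.

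Rps18 and Rps18-ps3, on chromosome 8, formed 3 bands. The copy was at 0 or 1 in 2 mice, where Rps18 had 2420 and 2632. In 28 mice the copy lay between 296 and 625 and Rps18 between 1327 and 2932. In 18 mice the copy lay between 754 and 1158 and Rps18 between 994 and 1511. Inside the bands of 28 and 18 mice the gene and the copy were positively correlated (Pearson r 0.94 and 0.92; Spearman 0.88 and 0.89). The values of Rps18 in the 2 mice lay inside the range of the 28, and those of the 18 lay mostly below it. The band of 18 mice held 12 females, 6 of each line, and 6 males, 4 High and 2 Low. Adding copies raised the correlation of Rps18 with the other members to 0.79.

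Rpl7a, a large-subunit protein whose gene hosts small nucleolar RNAs, was lower in the bands of mice with higher values of Gm16477 on chromosome 7. The copy was between 0 and 4 in 12 mice, 42 and 87 in 25 mice and 114 and 174 in 11 mice, and Rpl7a ran from 4197 to 5535, from 2984 to 4384 and from 2329 to 2895 in these. Inside these bands the gene and the copy were positively correlated (Pearson r 0.18, 0.70 and 0.57, Spearman 0.38, 0.67 and 0.70). The copy's values were far smaller than the differences in the gene, and adding copies left the correlation of Rpl7a with the other members at 0.16. Rplp0 and Gm8730, on chromosome 8, were less cleanly divided: Rplp0 ran from 2308 to 4342 in 19 mice with the copy between 3 and 65, and from 1694 to 3318 in 29 mice with the copy between 121 and 375. On the log2 scale the largest gap of Gm8730 lay elsewhere, between 4 and 21.

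Rpl29 went the other way. It lay between 249 and 446 in 39 mice and between 771 and 1517 in 9 mice, and Gm10709, a processed copy on chromosome 9, lay between 0 and 22 in the 39 and between 268 and 678 in the 9. The 9 mice were 2 High females, 3 High males, 1 Low female and 3 Low males. Rps2, at 0.52 with the other members, had a copy on the X chromosome, Rps2-ps13, that lay between 0 and 4 in 13 mice and between 392 and 1319 in 35; Rps2 ran from 3340 to 5721 in the 13 and from 2299 to 5459 in the 35, overlapping between 3340 and 5459, and adding copies lowered its correlation to 0.32. In all, 58 members had a processed copy in the table, and 32 pairs had a copy averaging 1 ppm or more. Over these 32 pairs the median correlation between copy and member was -0.08, with 5 pairs under -0.5 and 6 above 0.5.

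**Figure D5:**
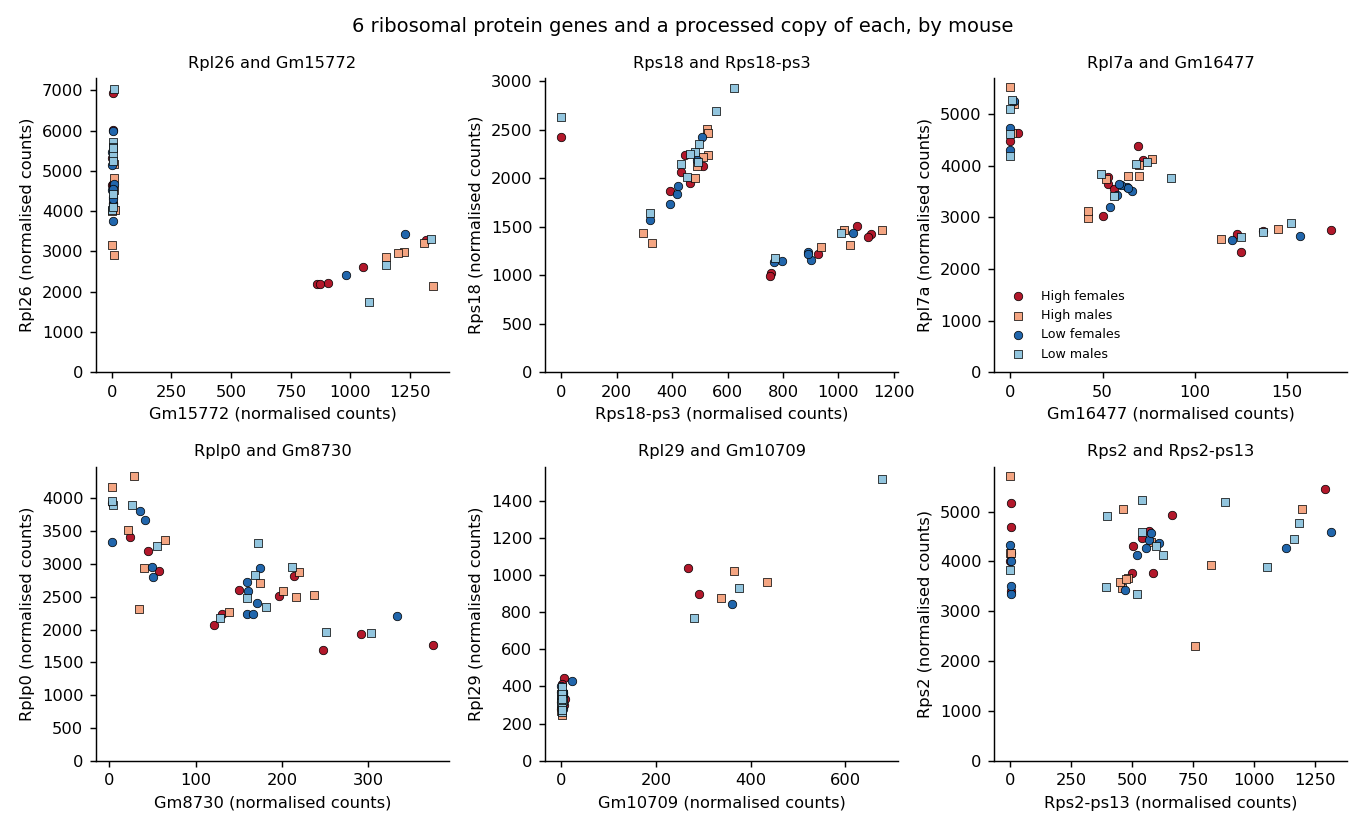
Normalised counts of 6 ribosomal protein genes against those of a processed pseudogene copy of each, 1 point per mouse, in the 4 groups. Rpl26, Rps18, Rpl7a and Rplp0 are lower in mice with a high copy, Rpl29 is higher, and Rps2 overlaps; apart from the 2 mice with Rps18-ps3 at 0 or 1, a High female and a Low male, every band held mice of all 4 groups.

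Rpl34 and Rpl35a were among the 4 members with the largest spread, with Rpl29 and Rpl3l. Rpl34, a large-subunit protein, had an SD of 0.69 on the log2 scale and ran from 1131 to 4062 in High females (median 2459) and 714 to 3961 in High males (median 3073.5), against 488 to 3633 in Low females (median 2043) and 1075 to 4025 in Low males (median 2711). Its exons did not vary alike. The first of its 4 exons ran only from 34 to 93, the second from 298 to 1656, the third from 80 to 1612 and the last from 5 to 958. Its line difference was 0.15 ± 0.189.

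Rpl35a, known in people as a Diamond-Blackfan anaemia gene, ran from 899 to 2658 in High females and 975 to 2980 in High males, against 796 to 2568 in Low females and 928 to 2574 in Low males. Its first exon ran from 326 to 756 and its last from 448 to 2273. Ordered by value, the mice left a gap between 1259 and 1487, with 28 above it, of which 17 were High (10 females and 7 males) and 11 Low (5 females and 6 males). The last exon averaged 1167 ± 521 in High and 957 ± 470 in Low (SD, n = 24 each), and the first exon 541 ± 95.6 in High and 516 ± 95.3 in Low. Rpl30, at 0.50 with the other members, varied in both of its exons alike, from 407 to 1144 in the first and 1011 to 3240 in the last.

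Among 307 exons of 74 members, the median SD of an exon relative to the rest of its gene was 0.12 on the log2 scale. The largest was that of the last listed exon of Rpl21 (1.83), whose values ran from 17 to 1261 with a median of 29, followed by the last listed exon of Rps12 (0.97), from 88 to 1266. The last-listed Rps12 exon averaged 732 ± 352 in High and 537 ± 311 in Low (SD, n = 24 each), and Rps12 had an adjusted p of 0.766 in the usage test that follows. In the test of exon usage between High and Low (limma's diffSplice, Simes p per gene), no member passed, against 0.51% of 14702 genes. The smallest p was that of Rpl27, a large-subunit protein (Simes p = 0.00370, adjusted p = 0.268), whose exon starting at 101305269 on chromosome 11 of mm9 was at 0.45 relative to the rest of the gene.

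Genes that work with the ribosome were read beside the members between High and Low, where 0.28% of all tested genes were called. Of 6 tested cytosolic ribosomal proteins with other names, none was called and 2 were above 0 (median -0.01); Fau and Rack1 belong here, and so does Rps3a1, which ran from 1206 to 8595. Rpl7l1 (0.06 ± 0.0383) and Rpl22l1 (0.05 ± 0.0547) had the smallest p. Of 31 initiation factors 1 was called lower: Eif3l, a subunit of the eIF3 complex, averaged 1301 ± 111 in High females and 1319 ± 147 in High males, against 1436 ± 120 in Low females and 1476.5 ± 88.9 in Low males, a log2 difference of -0.16 ± 0.0372 (limma adjusted p = 0.0478). The call of Eif3l lay close to the threshold, and Eif3l was not followed under the alternatives described later. Of 17 elongation factors and other mRNAs with the terminal tract none was called, with Vim at 0.23 and Rack1 at -0.04. None was called of 46 ribosome biogenesis genes (Nop14 at -0.14, Nob1 at -0.11), 19 genes of mTOR and MYC growth control (Tsc1 at -0.10, Akt1s1 at -0.07), 8 small nucleolar RNA host genes (Snhg17 at -0.17, Snhg20 at -0.11) or 77 mitochondrial ribosomal protein genes (Mrps21 at -0.17, Mrps10 at -0.13).

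These neighbours also differed in how they varied. The median pairwise correlation was 0.33 among the 6 ribosomal proteins with other names and 0.31 among small nucleolar RNA host genes. It was 0.35 among the elongation factors and other mRNAs with the tract and 0.19 among initiation factors. Ribosome biogenesis genes were at 0.01 and mTOR and MYC genes at -0.00. The median correlation with the mean of the members was 0.91 for the 6 ribosomal proteins with other names and 0.61 for the elongation list. It was 0.56 for the small nucleolar RNA hosts and 0.50 for mitochondrial ribosomal protein genes. Ribosome biogenesis genes were at 0.16, initiation factors at 0.15 and mTOR and MYC genes at -0.15. Between females and males, where 0.0782% of all tested genes were called, 1 initiation factor was called higher. It was the X-linked Eif2s3x (0.64 ± 0.0832, limma adjusted p = 1.4e-06). Rps3a1 had the lowest p of the ribosomal proteins with other names (-0.59 ± 0.205, limma adjusted p = 0.982).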

How the data were processed

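One poly(A) RNA-seq library per mouse was measured. The authors deposited a gene table and an exon table whose values are a score: counts that they normalised and rounded to whole numbers, per the file headers and the values. The submitters' processing notes name STAR 2.4.0, edgeR 3.4.2, R 3.0.2 and build mm9, with no role given; the sources used here do not give the strand setting, the normalisation or the treatment of reads that fit several places. The depth before scaling is therefore unknown, and no counting interval was given. Symbols and lengths came from GENCODE M21 (GRCm38), since the exon table gives starts only. limma 3.58.1 (R 4.3.3) was fitted on log2(value + 0.5 ppm) for 15350 genes at 1 ppm (14.1 normalised counts) in at least 12 libraries, with 4 group means; calls are Benjamini-Hochberg adjusted p under 0.05. Differences are on this scale and understate those of low genes. Exons at 0.1 ppm in at least 12 libraries entered diffSplice with a pseudocount of 0.05 ppm. Copies are processed pseudogenes elsewhere that hold 10% or more of a member's 25-base words. Named members are the 6 (3 within a gender and for the interaction) with the smallest p, the 5 highest and lowest levels, the 4 most and least variable and correlated, X-linked members, near-copies and stalk genes; other lists give called genes or the 2 smallest p. Members and lists were chosen with earlier results of these data known. The fits were tested on simulated data. Alternatives changed the pseudocount, filter, scaling, library weights, statistics and the part of the gene used. Some genes that these rules name are not reported here.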

Additional observations from a re-analysis of the deposited data

How the results depend on the processing

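No member was called in any of the 5 comparisons under any of 14 alternatives, 13 planned and 1 (copies added to the members) chosen after seeing the data. Single members were followed as 21 pairs of a member and a comparison, with some members in more than 1 pair. All 294 repeats of these pairs kept the direction with no call, and the smallest limma adjusted p was 0.0865. Without High males replicate 1 the members' median log2 line difference was 0.03 over both genders and 0.01 in males, against 0.01 and -0.04, and the median interaction was 0.05, against 0.11. With the last-exon share in the fit the members' median was -0.02 over both genders, -0.01 in females and -0.002 for the interaction, against 0.01, 0.07 and 0.11. The median pairwise correlation of the members was 0.520 with the last-exon share as a covariate, against 0.769. The median level was 3872 per kb with the length of the longest transcript and 899 over members with under 10% of their words elsewhere, against 2244. Counts over all tested genes moved more: between High and Low, 43 genes became 80 with library weights, 77 with the last-exon share, 137 with robust regression and 5 without last exons. In females 4 became 2 with no filter, 7 with weights, 2 with the last-exon share, 21 with robust regression and 1 without last exons. In males 0 became 29 and for the interaction 0 became 7, both with robust regression, and between females and males 12 became 24 with robust regression and 7 without last exons. The cause was not tested. With 12 mice a group, a member's median standard error limits what can be seen. It was 0.0677 between High and Low and between females and males, 0.0957 between the lines within a gender and 0.135 for the interaction. No paired analysis was possible because the labels give no replicate numbers that groups share.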
